A study of Mus musculus with 2 samples.

Results

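Genes of glutathione conjugation, peroxide reduction and glutathione synthesis were compared between small hepatocytes (SHs) and mature hepatocytes (MHs) of the adult mouse liver. They were chosen by symbol alone, as the soluble glutathione transferases (Gst followed by a class letter and a number), the microsomal transferases (Mgst), the glutathione peroxidases (Gpx), and Gclc, Gclm, Gss and Gsr. This gave 36 of the 43280 gene symbols counted. Of these, 28 had at least 10 reads over both libraries and 27 had at least 200.

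SHs are small cells that the labels describe as progenitors intrinsic to the hepatocytes, and MHs are the bulk of the parenchymal cells. Both were prepared from C57BL6 mice, with no transgene or treatment named, by collagenase perfusion, and the labels state that both kinds came from the same animals. SHs were taken from the fraction left after MHs were spun out, and Percoll centrifugation removed dead cells from both. The labels name no sort for MHs, whereas SHs were then purified by flow cytometry as cells lacking CD31, CD45 and EpCAM and carrying ICAM-1. The labels give the animals an age of 20 weeks, while the methods give a younger range for the mice used for cell isolation, and the methods state that 3 mice were used for these preparations. There was 1 library of poly(A) RNA for each kind of cell and no replicate, so every difference is between these 2 libraries and no test between the cell types was possible.

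Glutathione is a tripeptide of glutamate, cysteine and glycine that hepatocytes hold at high concentration. It is made in a pair of steps, by glutamate-cysteine ligase and then by glutathione synthetase. Transferases couple it to reactive compounds so that they can be exported, peroxidases use it to reduce hydrogen peroxide and lipid peroxides, and glutathione reductase returns the oxidized form to use. In the liver lobule, several transferases are known to be more abundant in hepatocytes near the central vein.

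Counted reads came to 16979136 for MHs and to 42356444 for SHs, and values were scaled to reads per 1000000 counted reads of the library (RPM). A level of 3 reads, set here as the floor, was 0.177 RPM in MHs and 0.0708 RPM in SHs. Ratios are given as log2 of SHs over MHs with the 95% Clopper-Pearson interval of the read counts, which covers counting error only. A gene was called lower or higher when it differed by at least 1.5-fold, which is 0.58 on the log2 scale, and its interval lay wholly on that side of 0. Among all 9608 genes with at least 200 reads, the central 90% of log2 ratios lay between -0.40 and 0.42. The hepatocyte genes Alb and Hnf4a had log2 ratios of 0.13 and 0.04. Endothelial, macrophage and stellate cell markers were lower in the sorted SHs, while few cholangiocyte markers had enough reads to compare. All 10 endothelial markers were called lower, with a summed level of 85.3 RPM in MHs and 4.39 RPM in SHs, and Lyve1 was at 0 reads in SHs. Of the macrophage markers with at least 10 reads, 9 of 10 were called lower (summed level 22.9 and 1.13 RPM over the 11 counted, Marco at 0 reads in SHs), as were 9 of 9 stellate cell markers (27.1 and 2.46 RPM over the 10 counted, Colec11 at 0 reads in SHs). The 7 cholangiocyte markers summed to 14.0 RPM in MHs and 14.1 RPM in SHs. The 2 of them with at least 10 reads were not called, with Sox9 at a log2 ratio of 0.50 (0.16 to 0.85) and Spp1 at -0.33 (-0.63 to -0.02), and Tspan8 was at 0 reads in both. The part of RNA from such cells in the ratios below was not tested.

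The genes together held a similar share of the reads in both libraries, 0.694% in MHs and 0.671% in SHs. Their median log2 ratio was 0.04 over the 28 genes with at least 10 reads, and that of all 15521 genes with at least 10 reads was 0.02. Within this narrow total, members differed from each other. Gstm2, Gstm3 and Gstm5, all of the mu class, were called lower in SHs, and Gsta2, of the alpha class, was called higher. The 3 lower genes were 10.7% of the 28 members, where 6.20% of all genes with at least 10 reads and 2.10% of those with at least 200 reads were called lower. The 1 higher gene was 3.57% of the members, where 3.50% and 1.86% of all genes were called higher. In bulk RNA, fewer cells of a type and less RNA per cell cannot be told apart.

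**Figure D1:**
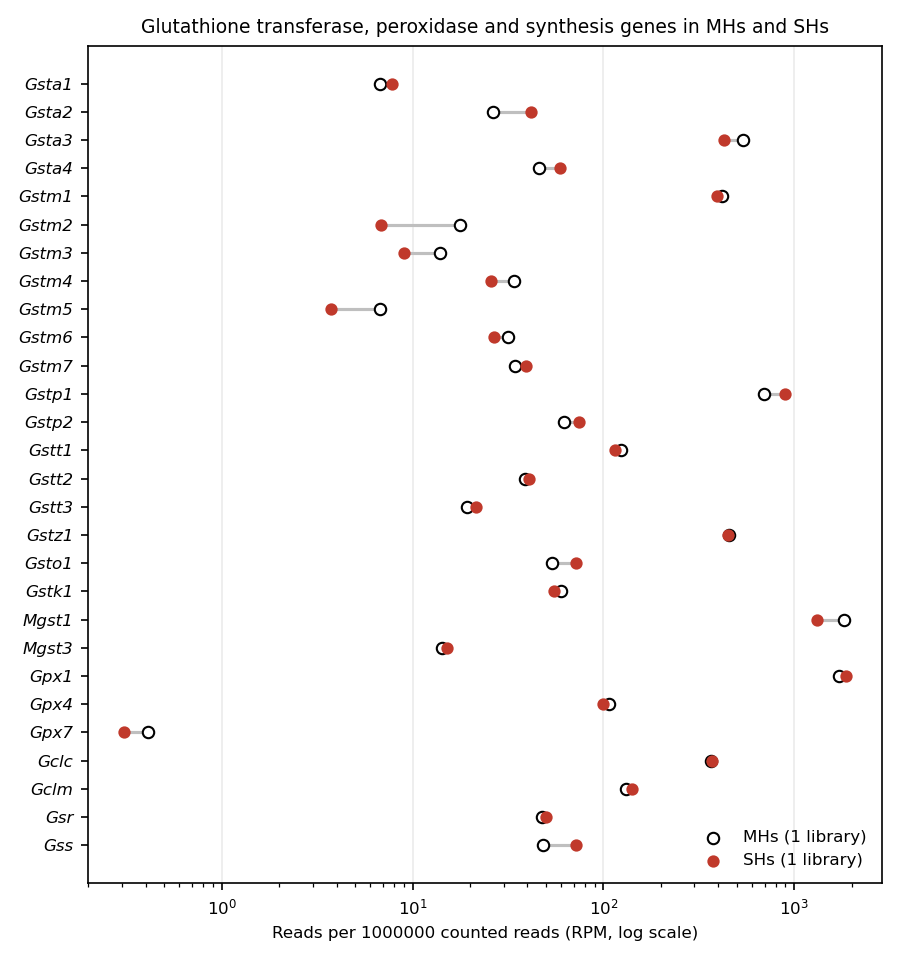
Level of each gene with at least 10 reads, in RPM on a log scale, in the 1 library of MHs (open circles) and the 1 library of SHs (filled circles), joined by a line. Mgst1 and Gpx1 were the highest in both libraries, and the longest line is that of Gstm2, from 17.8 RPM in MHs to 6.87 RPM in SHs.

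**Figure D2:**
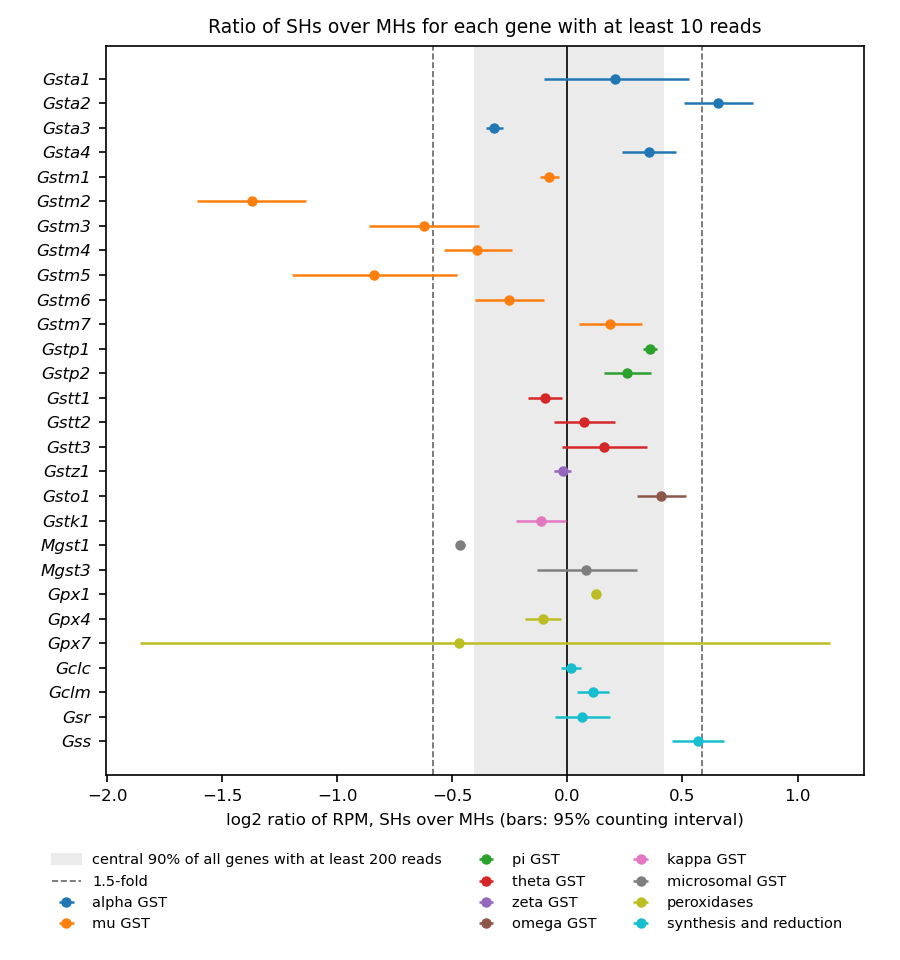
Log2 ratio of RPM in SHs over MHs for the same 28 genes, coloured by class, with bars for the 95% counting interval, a grey band for the central 90% of all genes with at least 200 reads, and dashed lines at 1.5-fold. Gstm2, Gstm3 and Gstm5 lie left of the lower dashed line and Gsta2 right of the upper one, while Gss lies just inside it.

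The enzymes that make glutathione were well expressed in both kinds of cell, and none of the 4 genes of synthesis and reduction was called. Gclc, the catalytic subunit of glutamate-cysteine ligase and the rate-limiting enzyme of the pathway (chromosome 9, 77754535 to 77794485 of mm10), gave 6206 reads in MHs and 15655 in SHs. This was 365.5 and 369.6 RPM, for a log2 ratio of 0.02 (-0.03 to 0.06). Gclm, the modifier subunit of the ligase (chromosome 3, 122245557 to 122270732), had 2224 and 5994 reads, for a log2 ratio of 0.11 (0.04 to 0.18). For each read of Gclc there were 0.358 reads of Gclm in MHs and 0.383 in SHs, a comparison that does not depend on how the libraries are scaled.

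Gss, which encodes glutathione synthetase, the enzyme of the second step (chromosome 2, 155563181 to 155592810), stood apart from the ligase subunits. It gave 824 reads in MHs and 3044 in SHs, or 48.5 and 71.9 RPM, for a log2 ratio of 0.57 (0.45 to 0.68). At 1.48-fold it lay just under the threshold, and it passed it, at 0.60 and 0.59 on the log2 scale, when the 10 most-read genes were left out of the totals or only protein-coding genes were counted in them. With the totals used here, 98.0% of the genes with at least 200 reads had a lower ratio. Relative to Gclc, reads of Gss went from 0.133 per read of Gclc in MHs to 0.194 in SHs, for a log2 difference of 0.55 (0.43 to 0.67). Exons of Gss share 395 bases, 6.68% of its exon length, with Acss2 on the opposite strand, which gave 2370 reads in MHs and 5909 in SHs. Whether the counting used strand is not given in the sources used here. Exons of Gstz1, Gstt3 and Gclm also overlap those of other genes. They include Pomt2 for Gstz1 (9.14% of its exon length) and Gm20441 for Gstt3 (13.6%). For Gclm they include Gm17494 (4.7%) and Gm6061 (3.88%).

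Gsr, which encodes glutathione reductase (chromosome 8, 33652523 to 33698163), had 810 and 2115 reads, for a log2 ratio of 0.07 whose interval, -0.05 to 0.18, held 0. Relative to Gclc it differed by 0.05 (-0.08 to 0.18) on the log2 scale.

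Of the 8 peroxidase genes, 3 had at least 10 reads and none was called. Gpx1, the selenoenzyme of the cytosol and mitochondria that reduces hydrogen peroxide (chromosome 9, 108338903 to 108340343), was the most abundant of the 36 genes per length of exon in both libraries, with 1188 reads per kilobase of exon per 1000000 counted reads (RPKM) in MHs and 1295 RPKM in SHs. Its reads were 29066 in MHs and 79021 in SHs, for a log2 ratio of 0.12 (0.10 to 0.14). Gpx4, which reduces lipid hydroperoxides within membranes and protects cells from ferroptosis (chromosome 10, 80047166 to 80056439), had 1827 and 4233 reads, 108 and 99.9 RPM, for a log2 ratio of -0.11 (-0.19 to -0.03). Whether its interval held 0 depended on the scaling. Of the 50-base stretches of Gpx4 transcripts, 34.7% occur exactly in transcripts of other genes, most often Gpx4-ps2, so its reads could not be cleanly separated. For each read of Gpx4 there were 15.9 reads of Gpx1 in MHs and 18.7 in SHs, for a log2 difference of 0.23 (0.15 to 0.31), and relative to Gsr, Gpx1 differed by only 0.06 (-0.06 to 0.18). Gpx7, a peroxidase of the endoplasmic reticulum that uses cysteine in place of selenocysteine, had 7 and 13 reads, too few for its interval of -1.86 to 1.14 to show a difference.
The other peroxidases were at or near 0. Gpx2, known from the gut, Gpx3, the plasma enzyme, Gpx5, known from the epididymis, and Gpx8 had 0 reads in both libraries, which allows a level of up to 0.177 RPM in MHs and 0.0708 RPM in SHs. Gpx6 gave 0 reads in MHs and 6 in SHs.

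The mu class of transferases held the widest spread. Its 7 genes, Gstm1 to Gstm7, lie in a single cluster of 149 kb on chromosome 3 (107895821 to 108044894 of mm10), and these enzymes couple glutathione to epoxides and other electrophiles. Of the 7 genes, 6 had a log2 ratio under 0 with an interval wholly under 0, and 1, Gstm7, had an interval wholly above 0. Among all genes with at least 200 reads, 16.9% had an interval wholly under 0 and 23.2% one wholly above it. Among those with at least 10 reads these shares were 15.5% and 16.8%.
Gstm2 (107981702 to 107986453) gave 302 reads in MHs and 291 in SHs, although the library of SHs was the deeper one. It fell from 17.8 to 6.87 RPM, 2.59-fold lower, for a log2 ratio of -1.37 (-1.61 to -1.14). Only 0.458% of the genes with at least 200 reads had a lower ratio. Gstm5 (107895821 to 107898686) fell from 6.71 to 3.75 RPM, with 114 and 159 reads and a log2 ratio of -0.84 (-1.19 to -0.48). Gstm3 (107963696 to 107969283) fell from 13.9 to 9.02 RPM, with 236 and 382 reads and a log2 ratio of -0.63 (-0.86 to -0.38). At 1.54-fold it lay just past the threshold.

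The most abundant gene of the class differed far less. Gstm1 (108012255 to 108017973), the main mu transferase of mouse liver, gave 7102 reads in MHs and 16782 in SHs, or 418 and 396 RPM, for a log2 ratio of -0.08 (-0.12 to -0.04). It held 75.1% of the reads of the class in MHs and 78.0% in SHs. Gstm4 and Gstm6 had log2 ratios of -0.39 (-0.54 to -0.24) and -0.25 (-0.40 to -0.10), under 1.5-fold. Gstm7 (107926334 to 107931817) went the other way, with 34.6 RPM in MHs and 39.4 RPM in SHs, for a log2 ratio of 0.19 (0.05 to 0.33). For each read of Gstm1 there were 0.0425 reads of Gstm2 in MHs and 0.0173 in SHs. For each read of Gstm2 there were 1.94 reads of Gstm7 in MHs and 5.73 in SHs, for a log2 difference of 1.56 (1.28 to 1.84).
The ratio did not follow the order of the genes along the cluster. From the lower to the higher coordinate the log2 ratios were -0.84 for Gstm5, 0.19 for Gstm7, -0.25 for Gstm6, -0.63 for Gstm3, -1.37 for Gstm2, -0.08 for Gstm1 and -0.39 for Gstm4. The neighbours Gstm2 and Gstm1 thus held the lowest ratio and one near 0.

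Because mu genes resemble each other, the share of their transcript sequence that also occurs in other genes was measured, as the percentage of 50-base stretches of the gene's transcripts found exactly in a transcript of another gene. It was 0% for Gstm5 and Gstm4, 5.65% for Gstm2 and 5.97% for Gstm6, but 18.9% for Gstm1, most often shared with Gstm2-ps1, and 28.8% for Gstm3, most often shared with Gm8834. Reads with mismatches can be shared more widely than this, so Gstm3 is the least certain of the 3 lower genes. Gstm5 also shares 178 bases of exon, 13.9% of its exon length, with an antisense gene, 4933431E20Rik, which gave 34 reads in MHs and 88 in SHs.
The sum over the class does not depend on how reads were divided within it. It was 557 RPM in MHs and 508 RPM in SHs, for a log2 ratio of -0.13 (-0.17 to -0.10), and without Gstm1 it was -0.31 (-0.39 to -0.24).

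The alpha class was split as well. Gsta3 (chromosome 1, 21240589 to 21265661), the abundant alpha transferase of mouse liver, which detoxifies the epoxide of aflatoxin, gave 9113 reads in MHs and 18246 in SHs. This was 537 and 431 RPM, for a log2 ratio of -0.32 (-0.35 to -0.28). Its 3 relatives on chromosome 9 had ratios above 0. Gsta2 (78331018 to 78355788) rose from 26.4 to 41.6 RPM, with 448 and 1760 reads and a log2 ratio of 0.65 (0.50 to 0.81). It had the highest ratio of the 28 genes, and 98.8% of the genes with at least 200 reads were lower. Gsta4 (78182774 to 78209349), which conjugates the lipid peroxidation product 4-hydroxynonenal, had 783 and 2499 reads and a log2 ratio of 0.35 (0.24 to 0.47). Gsta1 (78230656 to 78242684) had 114 and 329 reads, and its interval of -0.10 to 0.53 held 0.

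For each read of Gsta3 there were 0.0492 reads of Gsta2 in MHs and 0.0965 in SHs, for a log2 difference of 0.97 (0.82 to 1.13). Gsta1 and Gsta2 could not be cleanly separated. Of the 50-base stretches of Gsta1 transcripts, 90.5% occur in other genes, most often in Gm3776. That gene holds 75.7% of all the stretches of Gsta1 and was not among the counted symbols under that name. Of those of Gsta2, 49.8% do, most often in Gsta1. Summed, and so without Gm3776, Gsta1 and Gsta2 gave 562 reads in MHs and 2089 in SHs, for a log2 ratio of 0.57 (0.44 to 0.71), just under 1.5-fold. Gsta3, with 0.273% of its stretches shared, was well separated from them. Since it held 87.1% of the reads of the alpha class in MHs and 79.9% in SHs, the class sum followed it, with 616 RPM in MHs, 539 RPM in SHs and a log2 ratio of -0.19 (-0.23 to -0.16).

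Both pi transferases, Gstp1 and Gstp2, had higher levels in SHs. Gstp1 (chromosome 19, 4035407 to 4037985) gave 11859 reads in MHs and 37958 in SHs, or 698 and 896 RPM, for a log2 ratio of 0.36 (0.33 to 0.39). Gstp2 (4040285 to 4046023) had 1051 and 3141 reads, for a log2 ratio of 0.26 (0.16 to 0.36). Neither reached 1.5-fold. There were 11.3 reads of Gstp1 for each read of Gstp2 in MHs and 12.1 in SHs, for a log2 difference of 0.10 whose interval, -0.01 to 0.20, held 0. Of the 50-base stretches, 33.7% of those of Gstp1 and 54.3% of those of Gstp2 occur in another gene, so the pair is best read as a sum. The sum was 760 RPM in MHs and 970 RPM in SHs, for a log2 ratio of 0.35 (0.32 to 0.38).

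The microsomal transferases were dominated by Mgst1 (chromosome 6, 138140316 to 138156755), a membrane enzyme of the endoplasmic reticulum and mitochondria with transferase and peroxidase activity. It had 31014 reads in MHs, more than any other of the 36 genes there, and 56040 in SHs. This was 1827 and 1323 RPM, for a log2 ratio of -0.47 (-0.49 to -0.45), or 1.38-fold lower. The ratio was lower than that of Mgst1 in 3.66% of the genes with at least 200 reads. Mgst3 had 243 and 642 reads and a log2 ratio of 0.08 (-0.13 to 0.30), and Mgst2 had 0 reads in both. Relative to each read of Mgst1, reads of Gstp1 went from 0.382 in MHs to 0.677 in SHs, for a log2 difference of 0.82 (0.79 to 0.86). The total of all 36 genes turned on Mgst1. With it, the summed log2 ratio was -0.05 (-0.06 to -0.04), and without it, 0.08 (0.06 to 0.09).

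The remaining classes differed little, with 1 exception. Gsto1 (chromosome 19, 47854970 to 47864790), an omega transferase with dehydroascorbate reductase activity, had 916 and 3032 reads, 53.9 and 71.6 RPM, for a log2 ratio of 0.41 (0.30 to 0.52), while its neighbour Gsto2 had 2 and 4 reads. Gstz1 (chromosome 12, 87147165 to 87164723), the maleylacetoacetate isomerase of tyrosine breakdown, stood at 456 RPM in MHs and 449 in SHs, and its interval of -0.06 to 0.02 held 0. Gstk1, the kappa enzyme of mitochondria and peroxisomes, had a log2 ratio of -0.12 (-0.22 to -0.01). Of the theta genes, Gstt1 had a log2 ratio of -0.10 (-0.17 to -0.02), Gstt2 one of 0.07 (-0.06 to 0.21) and Gstt3 one of 0.16 (-0.02 to 0.35). Gstt4 gave 0 reads in MHs and 1 in SHs.

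Ranked by RPKM, a scale on which genes can be compared, the first 8 places were the same in both libraries. They were Gpx1, Mgst1, Gstp1, Gstm1, Gsta3, Gclc, Gstz1 and Gstt1. Among these 8, the values of Gsta3 and Gclc lay close together in SHs, at 99.2 and 98.1 RPKM, whereas in MHs they were 123.6 and 97.1 RPKM. Gstm2 went from place 22 to place 26 and Gss from place 24 to place 21. The lengths used are unions of all annotated exons, which came to 5915 bases for Gss and 1679 for Gstm2, and reads need not cover all of them.

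**Figure D3:**
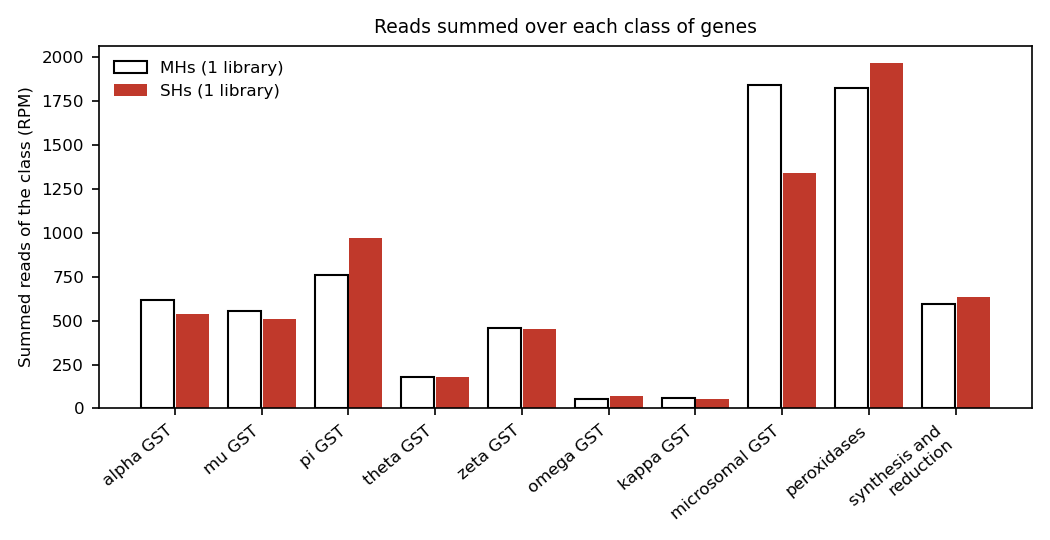
Reads summed over the genes of each class, in RPM, in the 1 library of MHs (open bars) and the 1 library of SHs (filled bars). The microsomal class was lower in SHs, at 1338 against 1841 RPM, the pi class and the peroxidases were higher, at 970 against 760 RPM and 1966 against 1820 RPM, with 94.1% of the peroxidase reads of MHs and 94.9% of those of SHs from Gpx1, and the mu class, which holds the 3 genes called lower, had sums of 508 and 557 RPM.

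Short DNA motifs upstream of the genes were listed as a description, since many of these genes are known targets of the stress-response factor NRF2. RefSeq promoter sequences (GRCm38.p6, the assembly of mm10) were at hand for 32 of the 36 genes, with 44 start sites, and the 250 bases before each start were searched on both strands for a strict core of the antioxidant response element that NRF2 binds, TGACNNNGC, for the AP-1 site TGACTCA, and for a TCF core, CTTTGAT. The first pair of motifs can match the same bases, and in none of the members did they. The antioxidant core stood before Gclm, Gsta3, Gstm5, Gstm7 and Mgst1. That is 5 of the 44 starts, beside 10.2% of all 32851 starts in the table. Of the 250 bases searched at the matched start, 250 for Gstm5, 199 for Gstm7 and 211 for Mgst1 lie in annotated exons. Gstm7 and Mgst1 each also had another start without a match. The AP-1 site stood before Gstm5, Gstp1, Gstp2 and Mgst2, 4 of the 44 starts, and before 4.46% of all starts. The TCF core stood before 0 of the 44 starts and before 3.21% of all. The genes with a core had ratios on both sides of 0, from -0.84 for Gstm5 to 0.19 for Gstm7.

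The 250 bases before the starts of Gsta3 and Gclm are shown because they lie wholly outside annotated exons. Matched letters are in capitals, 5′ to 3′ on the strand of the gene. The match lies 121 bases before the start for Gsta3 (chr1:21240335-21240584, plus strand) and 134 bases before it for Gclm (chr3:122245307-122245556, plus strand), where it is read on the other strand.
Gsta3: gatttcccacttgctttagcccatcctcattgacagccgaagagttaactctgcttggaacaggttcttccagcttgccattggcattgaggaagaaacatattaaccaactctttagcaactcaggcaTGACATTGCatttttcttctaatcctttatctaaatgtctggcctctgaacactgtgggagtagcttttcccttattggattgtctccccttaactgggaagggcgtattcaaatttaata
Gclm: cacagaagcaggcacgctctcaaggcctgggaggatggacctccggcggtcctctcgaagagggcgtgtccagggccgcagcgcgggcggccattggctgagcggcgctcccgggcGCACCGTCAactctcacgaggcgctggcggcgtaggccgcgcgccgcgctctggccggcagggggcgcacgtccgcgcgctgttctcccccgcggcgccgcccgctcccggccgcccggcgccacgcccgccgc

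For the others, windows of 29 bases show the match in capitals. The antioxidant core of Gstm5 (chr3:107895802-107895830, plus strand) and that of Gstm7 (chr3:107931725-107931753, minus strand) belong to the mu genes with the second lowest and the highest ratio, and that of Mgst1 (chr6:138140461-138140489, plus strand, read on the other strand) to the gene on which the total turned.
Gstm5: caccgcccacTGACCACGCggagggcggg
Gstm7: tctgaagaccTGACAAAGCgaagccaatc
Mgst1: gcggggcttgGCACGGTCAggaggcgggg

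The AP-1 windows of the pi pair lie at chr19:4037969-4037997 for Gstp1 and chr19:4042293-4042321 for Gstp2. Both are on the minus strand of the chromosome, with the site read on the strand opposite to the gene. They were picked because both genes had ratios above 0. Of the other genes with the site, Gstm5 was called lower, at -0.84 (-1.19 to -0.48), and Mgst2 had 0 reads. Genes with the site thus lay on both sides of 0. The 29 bases of the pi pair are identical, and the whole 250 bases aligned with 78.5% identity.
Gstp1: ctccaacgtgtTGAGTCAgcatccggggc
Gstp2: ctccaacgtgtTGAGTCAgcatccggggc

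Genes that feed or use glutathione were read from 8 lists of related functions, of which 80 genes were among the counted symbols and 70 had at least 10 reads. Of the 70, 7 were called lower, or 10%, beside 6.20% of all genes, and 1 was called higher, or 1.43%, beside 3.50%. Of the 61 with at least 200 reads, 2 were called lower and 1 higher, beside 2.10% and 1.86% of all genes with as many reads. The median log2 ratio of the 70 was 0.05.
The list of transporters of glutathione, its conjugates and cystine, with 9 genes of at least 10 reads, held 4 of the 7 lower genes. These were the export pumps Abcc1, Abcc4 and Abcc5 and the mitochondrial carrier Slc25a40, each with under 100 reads. Reads in MHs and SHs were 10 and 1 for Abcc1, 13 and 7 for Abcc4, 25 and 30 for Abcc5, and 36 and 53 for Slc25a40. The share of all genes of like depth called lower is not given here. Of the 5 transporters with at least 200 reads, 0 were called lower. Abcc2, the canalicular pump for glutathione conjugates and the transporter with the most reads, had 488 RPM in MHs and 334 RPM in SHs, for a log2 ratio of -0.55 (-0.59 to -0.51), under 1.5-fold.
Txnip, the inhibitor of thioredoxin, was the only one of 17 thioredoxin, glutaredoxin and peroxiredoxin genes to be called. It fell from 192 to 116 RPM, for a log2 ratio of -0.72 (-0.78 to -0.66). Csad, which makes hypotaurine on the way from cysteine to taurine, fell from 148 to 89.0 RPM, for a log2 ratio of -0.73 (-0.80 to -0.66), and was the only one of 7 genes of the path from methionine to cysteine and taurine to be called. Gstcd, a gene with a transferase-like domain, rose from 50 reads in MHs to 204 in SHs, for a log2 ratio of 0.70 (0.26 to 1.19).

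No gene was called in the lists of glutathione breakdown, NADPH supply and selenoprotein synthesis, with 11, 8 and 8 genes of at least 10 reads. The genes with the most reads there were Lap3, a leucine aminopeptidase (0.27, 0.22 to 0.31), H6pd, which makes NADPH in the endoplasmic reticulum (-0.15, -0.19 to -0.11), and Sepp1, the plasma selenoprotein P (-0.09, -0.11 to -0.08), given as log2 ratios with their intervals. Cat, the catalase of peroxisomes, which removes hydrogen peroxide without glutathione, had 1663 RPM in MHs and 2059 RPM in SHs, for a log2 ratio of 0.31 (0.29 to 0.33). In that list Sod3, the extracellular superoxide dismutase, was called lower, with 21 reads in MHs and 1 in SHs.

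**Figure D4:**
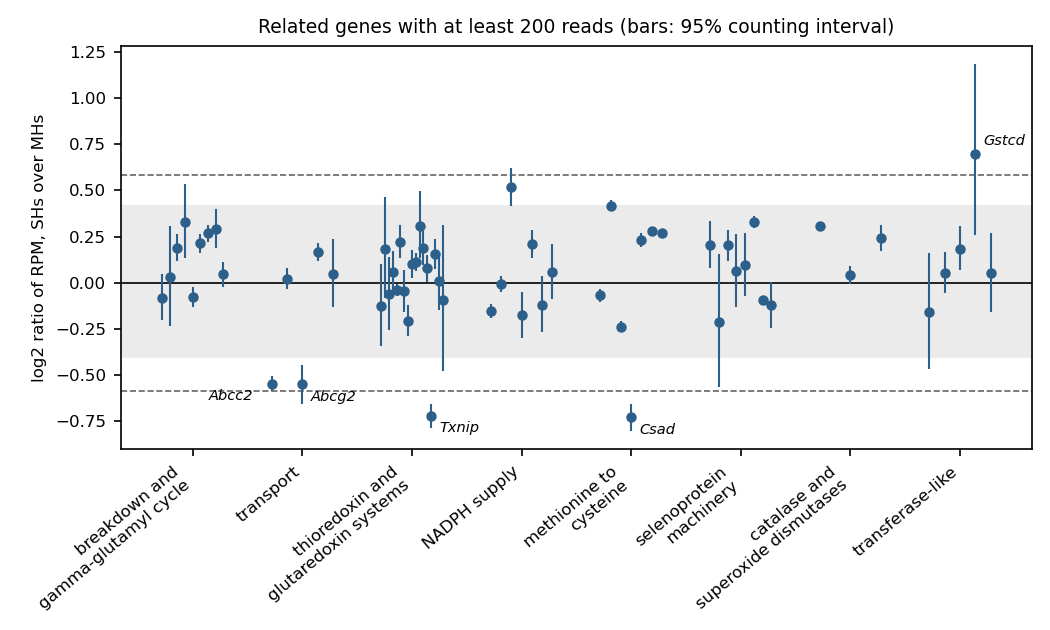
Log2 ratio of RPM in SHs over MHs for the related genes with at least 200 reads, by list, with bars for the 95% counting interval, a grey band for the central 90% of all genes with at least 200 reads and dashed lines at 1.5-fold. Txnip and Csad lie under the lower dashed line and Gstcd over the upper one, and Abcc2 and Abcg2, both at -0.55, lie just inside the lower one.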

How the data were processed

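Poly(A) RNA from 1 preparation of MHs and 1 of SHs was read on an Ion Proton instrument. The authors deposited whole read counts per gene symbol, without normalization. The methods describe alignment to mm10 in CLC Genomics Workbench, whereas the counting program, its annotation and its use of strand are not given in the sources used here, so genes with close paralogs or overlapping neighbours are uncertain.

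Counts were divided by the library total (RPM), and 0.5 reads were added to every count before log2 ratios were taken (Python 3.11.15, numpy 2.4.6, pandas 2.3.3, scipy 1.17.1). Intervals are 95% Clopper-Pearson intervals of the SH share of a gene's reads, and the 11 comparisons between pairs of genes used exact conditional odds ratios. Molecular identifiers were not used, so both kinds of interval describe counting error alone. No p-value was computed. The calculation was tested on simulated counts. Coordinates, exon lengths and transcripts came from GENCODE M21, in which all 36 genes were found.

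Every gene of the rule with at least 10 reads was named with values. Of each related list, genes past 1.5-fold with at least 200 reads were named, or else the one with the most reads. The genes, lists, pairs and motifs were chosen with earlier results of these data known. Sod3, Abcc1, Abcc4, Abcc5, Slc25a40, Abcg2, Alb, Hnf4a and the genes of the last section were named outside this rule or after their values were seen. Alternatives were TMM (edgeR 4.0.16) and DESeq2 1.42.0 size factors in R 4.3.3, other totals, thinning, other read minimums and folds, and 2 added reads.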

Additional observations from a re-analysis of the deposited data

How the results depend on the processing

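No paired analysis was possible because each kind of cell had a single library. Scaling by TMM or DESeq2 size factors, thinning SHs to the depth of MHs, and minimums of 1 or 200 reads left 3 genes called lower and 1 higher. With 2 reads added only the median, the single ratios and the class sums were recomputed. The median of the genes stayed between 0.04 and 0.07 under all of these. With the 10 most-read genes left out of the totals, 2 genes were called higher, the added one being Gss, and the summed log2 ratio was -0.017. With the reads of protein-coding genes as totals, added after the data were seen, these were 2, again with Gss, and -0.025. A threshold of 2-fold called 1 gene lower and 0 higher. One of 0.32 on the log2 scale called 5 lower and 5 higher. The shares of all genes called at these other folds and totals are not given here. These counts therefore have no background beside them. The summed ratio was -0.11 without Gpx1 and 0.075 without Mgst1, the latter added after the data were seen. Of 38 single-gene and class ratios, none changed sign among those with an interval off 0, but the interval of Gstk1 came to hold 0 under each of these 5 scalings and thinnings, and that of Gstt1 under 3 of them. The interval of Gpx4 came to hold 0 without the 10 most-read genes (-0.15 to 0.0048) and after thinning (-0.17 to 0.02). That of Gclc came to lie above 0 without the 10 most-read genes, and that of Gstt3 did so there and with protein-coding totals. Depth limits Gpx7 and the 8 genes under 10 reads.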

Other observations

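Genes on the path to cysteine, the amino acid that limits glutathione synthesis, and from it to taurine had ratios on both sides of 0. They were picked out after their values were seen. Mat1a, which makes S-adenosylmethionine, had a log2 ratio of 0.27 (95% interval 0.25 to 0.29), and Gnmt, which uses it as a methyl donor, had one of 0.28 (0.26 to 0.30). Cbs and Cth, the enzymes of transsulfuration that carry the sulfur of homocysteine to cysteine, had log2 ratios of 0.42 (0.39 to 0.45) and 0.23 (0.19 to 0.27). Ahcy, which makes homocysteine, was at -0.07 (-0.10 to -0.04). Cdo1 and Csad, which act in turn on the path from cysteine to taurine, were at -0.24 (-0.27 to -0.21) and -0.73 (-0.80 to -0.66). Of these 7 genes, 1, Csad, passed 1.5-fold.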
